A study of Homo sapiens with 6 samples.

Results

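The interferon-stimulated genes are transcripts that cells switch on after interferon binds its receptors, and 54 of them were followed here in PC3 cells that had received 1 of 3 siRNAs. The genes were listed by name, with earlier results of these arrays known, and every probe set whose platform annotation names a single member was used. Of the 54, 53 were named by at least 1 probe set, with 91 probe sets in all, among 19775 genes that the annotation names. STAT2, the remaining gene, had no probe set of its own in the annotation used and was not analysed here.

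PC3 is an established human prostate cancer cell line. RNA was taken 72 h after transfection with a scrambled siRNA, an siRNA pool against VEGF-C or an siRNA pool against NRP-2, with 2 arrays in each of the 3 groups. VEGF-C is a growth factor of lymphatic vessels and NRP-2 (neuropilin-2) is a co-receptor for it, and the comparisons ask which transcripts differ when the ligand or the co-receptor is depleted. Each target was addressed by 1 pool, and per the labels' protocols the pools came from different suppliers, Dharmacon for VEGF-C and Santa Cruz Biotechnology for NRP-2, so target and supplier cannot be told apart. All 3 groups were transfected, and no array of untransfected cells was analysed here. The labels do not say that the arrays of a group came from separate cultures, so every p-value measures the spread between these arrays, which may be technical.

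Type I interferons signal through the receptor chains IFNAR1 and IFNAR2 and the kinases JAK1 and TYK2 to a transcription factor complex that contains STAT2 and IRF9. This complex binds a DNA element, the interferon-stimulated response element (ISRE), in the promoters of its target genes. Their products include sensors of double-stranded RNA, such as RIG-I and the OAS enzymes, the ubiquitin-like protein ISG15 with its conjugating enzymes, and effectors such as the IFIT and MX proteins that interfere with viral translation and replication. Interferon gamma acts through another element, the gamma-activated site (GAS).

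The promoters of the members held the ISRE core more often than promoters in general. RefSeq windows of 300 bases on GRCh38.p14, from 250 before to 50 after a start site, were given for 46 of the 54 genes, in 62 windows. The ISRE core (GAAA, any 2 bases, then GAAA again), searched on both strands, was present in a window of 31 of the 46 genes (67.4%) and of 1195 of all 27305 genes (4.38%). The GAS core TTCNNNGAA was present for 15 of the 46 genes (32.6%) and for 9.38% of all genes. The windows of the 4 ISRE-bearing members with the smallest p in any comparison are printed from RefSeq on the strand of the gene, with each match of the ISRE core, on either strand, in capitals. They lie upstream of IFIT3 at chr10:89327747-89328046 (plus strand), EPSTI1 at chr13:42992192-42992491 (minus strand), HERC5 at chr4:88456869-88457168 (plus strand) and IFI44 at chr1:78649539-78649838 (plus strand).
IFIT3: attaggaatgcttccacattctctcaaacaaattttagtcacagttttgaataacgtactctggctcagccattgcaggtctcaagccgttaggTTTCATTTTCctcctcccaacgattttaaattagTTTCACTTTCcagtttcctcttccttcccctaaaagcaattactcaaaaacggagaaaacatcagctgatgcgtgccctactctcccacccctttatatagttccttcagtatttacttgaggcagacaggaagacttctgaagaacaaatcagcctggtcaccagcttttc
EPSTI1: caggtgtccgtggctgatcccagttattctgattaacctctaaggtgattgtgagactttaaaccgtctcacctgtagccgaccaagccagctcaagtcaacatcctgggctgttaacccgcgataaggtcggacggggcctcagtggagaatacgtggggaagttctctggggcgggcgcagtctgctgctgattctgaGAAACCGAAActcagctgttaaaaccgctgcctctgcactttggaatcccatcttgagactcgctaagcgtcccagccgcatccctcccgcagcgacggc
HERC5: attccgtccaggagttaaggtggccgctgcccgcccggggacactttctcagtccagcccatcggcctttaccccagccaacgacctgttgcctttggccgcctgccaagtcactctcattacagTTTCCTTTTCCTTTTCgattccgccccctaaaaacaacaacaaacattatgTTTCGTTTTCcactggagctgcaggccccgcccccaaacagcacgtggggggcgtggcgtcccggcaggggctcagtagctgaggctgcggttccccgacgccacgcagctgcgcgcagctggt
IFI44: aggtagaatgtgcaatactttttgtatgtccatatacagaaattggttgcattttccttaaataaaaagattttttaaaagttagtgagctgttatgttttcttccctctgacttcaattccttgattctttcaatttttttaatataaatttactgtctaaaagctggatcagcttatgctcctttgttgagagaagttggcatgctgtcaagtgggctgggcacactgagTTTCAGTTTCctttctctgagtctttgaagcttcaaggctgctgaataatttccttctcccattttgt
For IFIT3 and IFI44, which have 2 windows each, 1 is printed. The IFIT3 window printed held 2 matches, which begin at -156 and -122 relative to its start site, and the other window held 2 further matches. Both IFI44 windows overlap and hold the same match. HERC5 held 3, of which 2 overlap, and EPSTI1 and IFI44 held 1 each. In EPSTI1 the match was preceded by a GAS core that overlaps it. Matches are descriptions of the letters and not measured binding sites.

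The members were measured well above the floor in the control cells. With scrambled siRNA their means ran from log2 6.79 to 14.92 with a median of 11.31, and 49 of the 53 stood at log2 8 or more, against array medians over all probe sets of at most 3.07. A filter on the mean over the 6 arrays (at least log2 4) was passed by all 53, and their lowest value on any array was 6.46. The interferon genes themselves were at the floor: none of 18 named ligands, IFNB1 among them, passed the filter, and the highest of their values on any array was log2 3.02. The markers listed for PC3 cells were all measured past the filter (7 of 7). They were the epithelial genes KRT8, KRT18, KRT19, EPCAM and CDH1, and besides them VIM and CD44. Of the leukocyte markers 1 of 6 named passed it, LYZ, and the probe sets of PTPRC, CD3E and CD14 did not. Each targeted transcript was lower with its own siRNA, VEGFC by a log2 difference of -3.95 (SE 0.39) and NRP2, near the floor, by -1.74 (SE 0.26). NRP2 was also higher with VEGF-C siRNA than with scrambled siRNA, by 0.91 (SE 0.26). NRP-2 and VEGF-C siRNA thus differed in NRP2 by -2.65 (SE 0.26). VEGFC differed by 0.02 (SE 0.39) between NRP-2 and scrambled siRNA.

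The scrambled arrays differed from each other across the members, which bears on both comparisons against them. On scrambled array 2, 52 of 53 members stood higher than on scrambled array 1, with a median difference of 0.29 on the log2 scale, while the median over all genes differed by 0.0007. The mean of 19 G2 and mitosis genes, which dividing cells express, went the other way, with log2 10.17 on array 1 and 8.50 on array 2. Between the VEGF-C arrays 43 of 53 members were lower on array 2 (median difference -0.12), and between the NRP-2 arrays 32 were higher and 21 lower (0.06). Most members therefore moved together between arrays of the same siRNA in the scrambled and VEGF-C groups. In every comparison, also that of NRP-2 with VEGF-C siRNA, a count of members is not a count of separate observations. Relative to the scrambled mean, the members' median was -0.15 and 0.15 on the scrambled arrays, 0.40 and 0.24 on the VEGF-C arrays, and -0.22 and -0.20 on the NRP-2 arrays. Both VEGF-C arrays thus lay above scrambled array 2, the higher of the controls, and both NRP-2 arrays below scrambled array 1, the lower. The G2 and mitosis mean was 11.09 and 10.31 on the VEGF-C arrays and 10.91 and 9.86 on the NRP-2 arrays, and its part in the results was tested only as a covariate, as given with each comparison.

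**Figure D1:**
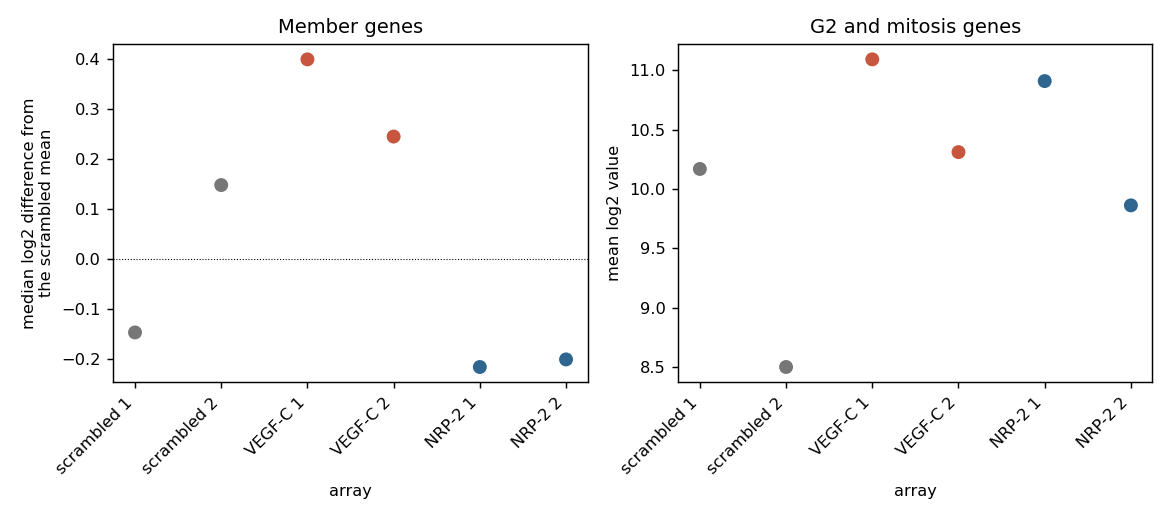
Left, the median over 53 interferon-stimulated genes of the log2 value minus the mean of the scrambled arrays, 1 point for each array; right, the mean log2 value of 19 G2 and mitosis genes on the same arrays. The VEGF-C arrays sit at 0.40 and 0.24 and the NRP-2 arrays at -0.22 and -0.20, outside the scrambled arrays (-0.15 and 0.15), while the G2 and mitosis mean is lowest on scrambled array 2 (8.50).

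The members separated most clearly between the cells that received NRP-2 siRNA and those that received VEGF-C siRNA. With NRP-2 siRNA 50 of 53 stood lower, against 47.3% of all 11131 genes tested, and the median difference was -0.50 on the log2 scale (all genes 0.02). Both NRP-2 arrays lay below both VEGF-C arrays for 41 members, against 22.4% of all genes, and the reverse held for 1 (OAS1), against 24.1%. At an unadjusted p under 0.05 in limma 31 members were lower and 0 higher, where 8.66% of all genes were lower and 9.54% higher. The difference reached 1.5-fold for 22 members and 2-fold for 9, and the share of all genes at these folds was not counted. In each comparison against scrambled siRNA 0 members were among the 20 genes with the smallest p. Between NRP-2 and VEGF-C siRNA, OASL, IFIT3 and UBE2L6 were among the 20 genes with the smallest p of all 11131. No other member was among the smallest 50. At a Benjamini-Hochberg adjusted p under 0.05 limma called 0 genes, with 2026 at an unadjusted p under 0.05, and the lowest adjusted p, 0.098, was that of these 3 members and of other genes.

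Without VEGF-C array 1 the count was 16, where 15.2% of all genes passed that fit in either direction. Without NRP-2 array 1 the members' median was -0.49, with 47 of 53 below 0. Fewer members than with all 6 arrays then passed the unadjusted threshold in limma. With the G2 and mitosis covariate in the model 33 members were lower at an unadjusted p under 0.05 (18.3% of all genes in either direction). The median was then -0.52.

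With VEGF-C siRNA 50 of 53 members stood above scrambled siRNA and 3 below, where 49.3% of all genes stood above and 50.7% below. The median difference was 0.30 (all genes -0.004). Both VEGF-C arrays lay above both scrambled arrays for 36 members (26.8% of all genes) and below both for 2, EIF2AK2 and TRIM25 (26.6% of all genes). In limma 17 members were higher at an unadjusted p under 0.05 and 0 lower, where 6.95% of all genes were higher and 7.8% lower. The lowest adjusted p of a member was 0.204, and 0 genes were called, with 1642 at an unadjusted p under 0.05. The result depended on scrambled array 1: without it 5 of 53 members were past the unadjusted threshold, about the share of all genes in that fit (9.34%), the median was 0.17 and 40 members were above 0. Without VEGF-C array 1 the count was 6, a smaller share than the 12.7% of all genes. It was 9 without VEGF-C array 2 (11.1% of all genes) and 17 with the G2 and mitosis covariate (7.51% of all genes, median 0.38).

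With NRP-2 siRNA 42 of 53 members stood below scrambled siRNA and 11 above, where 48.2% of all genes stood below and 51.8% above. The median difference was -0.18 (all genes 0.01). The comparisons of either pool with scrambled siRNA use the same scrambled arrays, and that of NRP-2 with VEGF-C siRNA shares arrays with both, so the 3 are not independent. Both NRP-2 arrays lay below both scrambled arrays for 22 members (24.4% of all genes) and above both for 5 (25.3%), namely OAS1, IRF1, ISG20, IFITM2 and IFITM3. At an unadjusted p under 0.05 in limma 8 members were lower (6.85% of all genes) and 1 higher, ISG20 (6.43%). The lowest adjusted p of a member was 0.213, shared by UBE2L6 and IFI44, and 0 genes were called, with 1478 at an unadjusted p under 0.05. Without scrambled array 2 the median was -0.0455, with 24 members above 0, and 2 members were lower and 2 higher at that threshold, together about the share of all genes in that fit (7.44%). Without NRP-2 array 2 the count was 10 lower, a smaller share than the 24.3% of all genes. Without scrambled array 1 the median was -0.32 and 13 were lower (6.55% of all genes in either direction). With the G2 and mitosis covariate the median was -0.08, with 6 lower and 2 higher (9.13% of all genes).

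**Figure D2:**
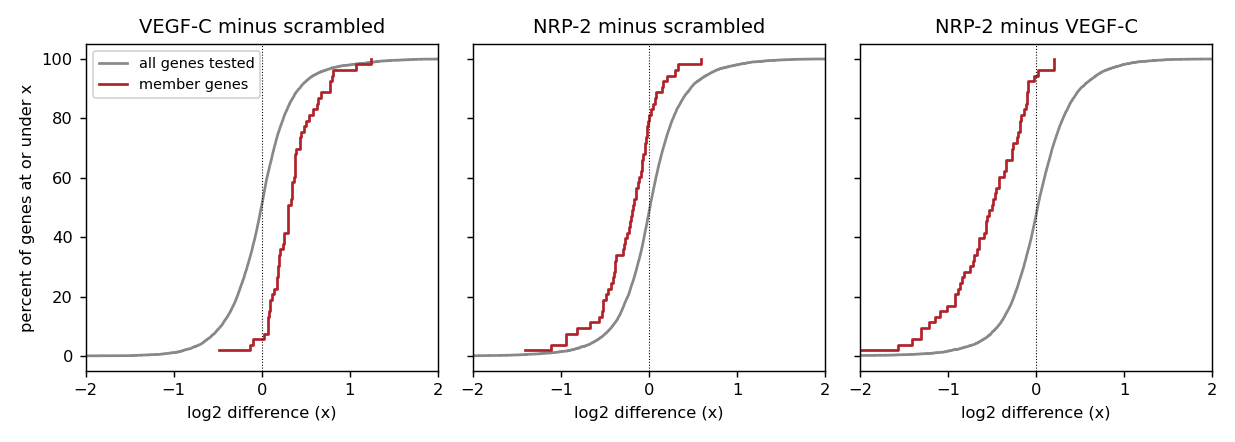
Cumulative percent of genes (vertical axis) at or under a log2 difference (horizontal axis, drawn from -2 to 2) for the 53 members and for all 11131 genes tested, in each of the 3 comparisons. The members' curve lies to the right of the curve of all genes for VEGF-C minus scrambled (median 0.30) and to its left for NRP-2 minus VEGF-C (median -0.50), with a smaller displacement for NRP-2 minus scrambled (median -0.18).

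**Figure D3:**
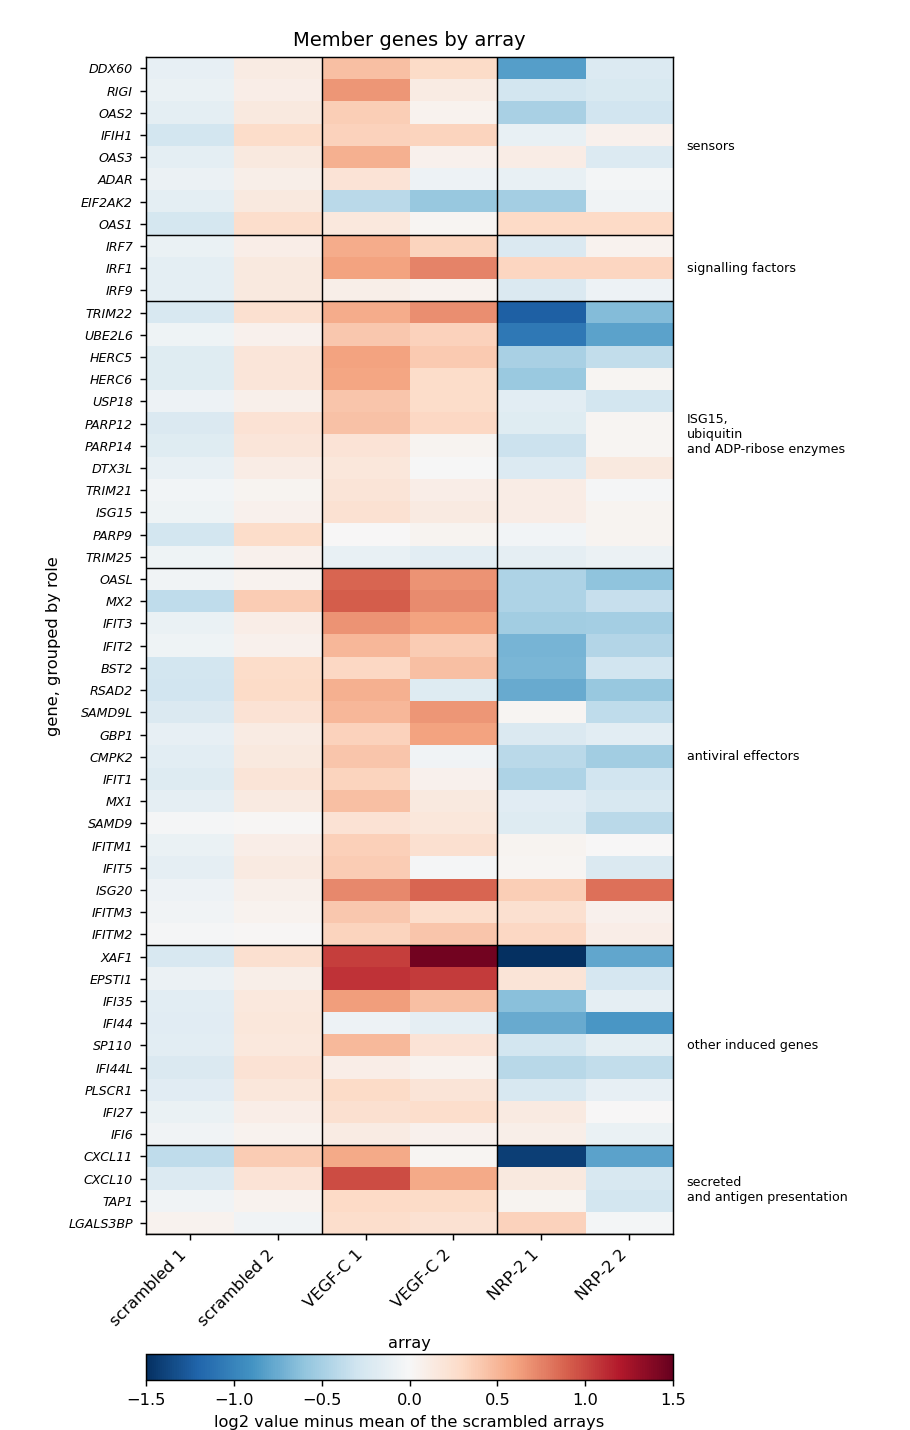
Log2 value of each of the 53 members on each of the 6 arrays minus the mean of the scrambled arrays, as colour (red above, blue below, scale ending at -1.5 and +1.5), with genes grouped by role. The VEGF-C columns are mostly red and the NRP-2 columns mostly blue, and 52 of 53 members are higher on scrambled array 2 than on scrambled array 1.

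Of 8 genes grouped as sensors of foreign RNA, 3 were lower with NRP-2 than with VEGF-C siRNA at an unadjusted p under 0.05. These were DDX60, OAS2 and RIGI, where 8.66% of all genes were lower, and 5 did not pass. The median of the 8 was -0.35. Against scrambled siRNA 0 of the 8 passed in either comparison (medians 0.25 and -0.16). DDX60, a helicase that supports RIG-I, stood at log2 12.80 and 13.05 with scrambled siRNA, 13.38 and 13.21 with VEGF-C siRNA, and 12.10 and 12.72 with NRP-2 siRNA. Its NRP-2 arrays were the lowest and its VEGF-C arrays the highest, and the difference between these groups was -0.89 (SE 0.24). OAS2, which makes the second messenger that activates RNase L, stood at 11.12 and 11.41, 11.63 and 11.31, and 10.78 and 10.98 in the same order of groups. Its NRP-2 arrays lay below all the others, while the VEGF-C and scrambled arrays overlapped. RIGI, the gene of the helicase RIG-I, differed by -0.64 (SE 0.21) between NRP-2 and VEGF-C siRNA, and its 3 probe sets gave -0.64, -0.97 and -0.77.

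ADAR, an enzyme that edits adenosine in double-stranded RNA and was grouped with the sensors, was the brightest of the group. It stood at 12.95 and 13.14 with scrambled, 13.26 and 12.98 with VEGF-C and 12.94 and 13.02 with NRP-2 siRNA, and its groups overlapped in every comparison. EIF2AK2, which encodes the kinase PKR, is named after its values were seen, because it was the member farthest below scrambled siRNA in the VEGF-C arrays. Its values were 12.71 and 13.01 with scrambled, 12.45 and 12.29 with VEGF-C, and 12.34 and 12.81 with NRP-2 siRNA, and the VEGF-C arrays lay lowest on average (-0.49, SE 0.21 against scrambled; limma, adjusted p = 0.362). Its other probe sets gave 0.11 and, near the filter, -0.82 for that comparison, so they do not share a direction. The remaining sensors, IFIH1 (the sensor MDA5), OAS1 and OAS3, were past the unadjusted threshold in no comparison.

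Of the factors that carry the signal to the nucleus, IRF9, IRF7 and IRF1 were measured. IRF1, a transcription factor strongly induced by interferon gamma, stood at 6.70 and 6.99 with scrambled, 7.44 and 7.59 with VEGF-C and 7.17 and 7.17 with NRP-2 siRNA. Both siRNA groups lay above the scrambled arrays, by 0.67 (SE 0.15) for VEGF-C and 0.33 (SE 0.15) for NRP-2. Its second probe set gave 0.30 and -0.38, so the direction with NRP-2 siRNA depended on the probe set. IRF7, which drives later waves of interferon transcription, stood at 9.72 and 9.93, 10.38 and 10.16, and 9.61 and 9.87 in the 3 groups. Its VEGF-C arrays lay above both other groups (0.45, SE 0.16 against scrambled), and the scrambled and NRP-2 arrays overlapped. IRF9, the DNA-binding subunit of the ISRE complex and the brightest of the 3, stood at 11.16 and 11.46, 11.39 and 11.36, and 11.09 and 11.24, and was past the unadjusted threshold in no comparison.

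Of the 12 members of ISG15, ubiquitin and ADP-ribose conjugation, 5 were lower with NRP-2 than with VEGF-C siRNA at an unadjusted p under 0.05 (8.66% of all genes). In addition 3 were higher with VEGF-C siRNA (6.95% of all genes) and 2 lower with NRP-2 siRNA (6.85%) than with scrambled siRNA. UBE2L6, the enzyme that hands ISG15 to its ligases, stood at 12.99 and 13.13 with scrambled, 13.46 and 13.41 with VEGF-C, and 11.99 and 12.26 with NRP-2 siRNA. The 3 groups did not overlap. UBE2L6 was 1.91-fold lower with NRP-2 siRNA than with scrambled siRNA (log2 difference -0.94, SE 0.14; limma, Benjamini-Hochberg adjusted p = 0.213) and 2.48-fold lower than with VEGF-C siRNA (-1.31, SE 0.14; adjusted p = 0.098). HERC5, the main ISG15 ligase in human cells, stood at 8.84 and 9.21, 9.63 and 9.42, and 8.54 and 8.66 in the same order. Its groups did not overlap either, and NRP-2 and VEGF-C siRNA differed by -0.92 (SE 0.17). USP18, which removes ISG15 and blocks the interferon receptor, had values of 9.66 and 9.81, 10.15 and 10.02, and 9.57 and 9.46, again with the NRP-2 arrays lowest and the VEGF-C arrays highest (-0.57, SE 0.13). ISG15, the modifier, stood at 14.86 and 14.97, 15.14 and 15.04, and 15.03 and 14.96. It lay near the top of the array's range, and its largest difference was 0.18 (SE 0.12), with VEGF-C siRNA.

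TRIM22, an antiviral ubiquitin ligase, showed the largest difference of these enzymes. It stood at 9.20 and 9.69 with scrambled, 10.00 and 10.14 with VEGF-C, and 8.22 and 8.79 with NRP-2 siRNA, without overlap between groups. NRP-2 siRNA gave a level 2.97-fold below that with VEGF-C siRNA (-1.57, SE 0.26; limma, adjusted p = 0.116) and 1.92-fold below that with scrambled siRNA. HERC6 was the remaining enzyme lower with NRP-2 than with VEGF-C siRNA at an unadjusted p under 0.05 (-0.70, SE 0.26). The ADP-ribosyltransferases PARP9, PARP12 and PARP14, the PARP9 partner DTX3L, and the ligases TRIM21 and TRIM25 were past that threshold in no comparison. PARP9 and DTX3L form a complex, and their differences from scrambled siRNA were 0.02 and 0.08 with VEGF-C siRNA. A second, dimmer PARP9 probe set gave -0.44 in that comparison.

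The antiviral effectors stood on a common side: 17 of 17 stood above scrambled siRNA with VEGF-C siRNA and 17 of 17 stood lower with NRP-2 than with VEGF-C siRNA. At an unadjusted p under 0.05, 8 were higher with VEGF-C than with scrambled siRNA (6.95% of all genes). With NRP-2 siRNA 3 were lower (6.85%) and 1 higher (6.43%) than with scrambled siRNA, and 12 were lower than with VEGF-C siRNA (8.66%). The medians were 0.38, -0.30 and -0.65. OASL, an OAS-like protein that enhances RIG-I signalling, stood at 10.11 and 10.23 with scrambled, 11.05 and 10.84 with VEGF-C, and 9.71 and 9.56 with NRP-2 siRNA. Its groups did not overlap, and it lay 1.71-fold above scrambled siRNA with VEGF-C siRNA (0.77, SE 0.14; limma, adjusted p = 0.217) and 2.48-fold lower with NRP-2 than with VEGF-C siRNA (-1.31, SE 0.14; adjusted p = 0.098).

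The IFIT proteins bind viral RNA and hold back its translation. IFIT3 stood at 13.31 and 13.49 with scrambled, 14.08 and 14.00 with VEGF-C, and 12.87 and 12.89 with NRP-2 siRNA, and the VEGF-C and NRP-2 arrays lay on opposite sides of the controls. The difference between NRP-2 and VEGF-C siRNA was -1.15 (SE 0.13; limma, adjusted p = 0.098), and a second IFIT3 probe set gave -1.41. IFIT2 stood at 12.70 and 12.83, 13.26 and 13.15, and 12.07 and 12.32, again without overlap (-1.01, SE 0.14, between NRP-2 and VEGF-C siRNA). IFIT1 gave a smaller difference in that comparison (-0.57, SE 0.19), and IFIT5 (-0.27, SE 0.20) was past the unadjusted threshold in no comparison. In their brightest probe sets the 4 family members ranged from -1.15 to -0.27, and the second probe set of IFIT2 gave -1.61.

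MX2, a dynamin-like GTPase that restricts retroviruses, stood at 8.33 and 9.09 with scrambled, 9.63 and 9.43 with VEGF-C and 8.26 and 8.37 with NRP-2 siRNA. The scrambled arrays were far apart, the VEGF-C arrays above both and the NRP-2 arrays next to the lower, and NRP-2 and VEGF-C siRNA differed by -1.22 (SE 0.26). MX1 differed by -0.50 (SE 0.17) in the same comparison. GBP1, an interferon-induced GTPase that coats intracellular pathogens, stood at 11.49 and 11.73, 11.95 and 12.22, and 11.39 and 11.45, with the 3 groups in the order NRP-2, scrambled, VEGF-C and no overlap.

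BST2 (tetherin), which holds budding virions at the cell surface, had 10.35 and 10.91, 10.94 and 11.09, and 9.95 and 10.35 in the same order of groups. Its VEGF-C arrays were highest, and the higher NRP-2 array was level with the lower scrambled array. SAMD9 and its neighbour SAMD9L, which restrict poxviruses, stood lower with NRP-2 than with VEGF-C siRNA by -0.49 (SE 0.13) and -0.75 (SE 0.22). SAMD9 had values of 12.29 and 12.34, 12.53 and 12.48, and 12.12 and 11.92, and SAMD9L of 9.35 and 9.78, 10.07 and 10.23, and 9.60 and 9.19. The NRP-2 arrays of SAMD9 lay below its scrambled arrays, whereas those of SAMD9L stood on both sides of the lower scrambled array.

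CMPK2, a mitochondrial nucleotide kinase, stood at 12.26 and 12.56, 12.83 and 12.36, and 12.01 and 11.89, and RSAD2 (viperin), its neighbour in the genome, was also lower with NRP-2 than with VEGF-C siRNA at the unadjusted threshold (-0.84, SE 0.31). For CMPK2 the VEGF-C and scrambled arrays overlapped and the NRP-2 arrays lay below both. ISG20, an exonuclease that degrades RNA, departed from this order. It stood at 10.19 and 10.35 with scrambled, 10.99 and 11.15 with VEGF-C and 10.64 and 11.09 with NRP-2 siRNA, so that both siRNA groups lay above the controls, by 0.80 (SE 0.19) and 0.59 (SE 0.19). The IFITM proteins, which block fusion of viruses with the cell, stood on the same side, with 0.30 to 0.38 for VEGF-C siRNA and 0.02 to 0.20 for NRP-2 siRNA. IFITM3, the brightest effector, stood at 14.18 and 14.29, 14.64 and 14.50, and 14.47 and 14.30. The IFITM genes are close copies, and the probe sets of IFITM2 and IFITM3 are of a type whose probes can match other transcripts, so their signals may be shared. The brightest probe sets of RIGI and SP110 are of that type too.

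**Figure D4:**
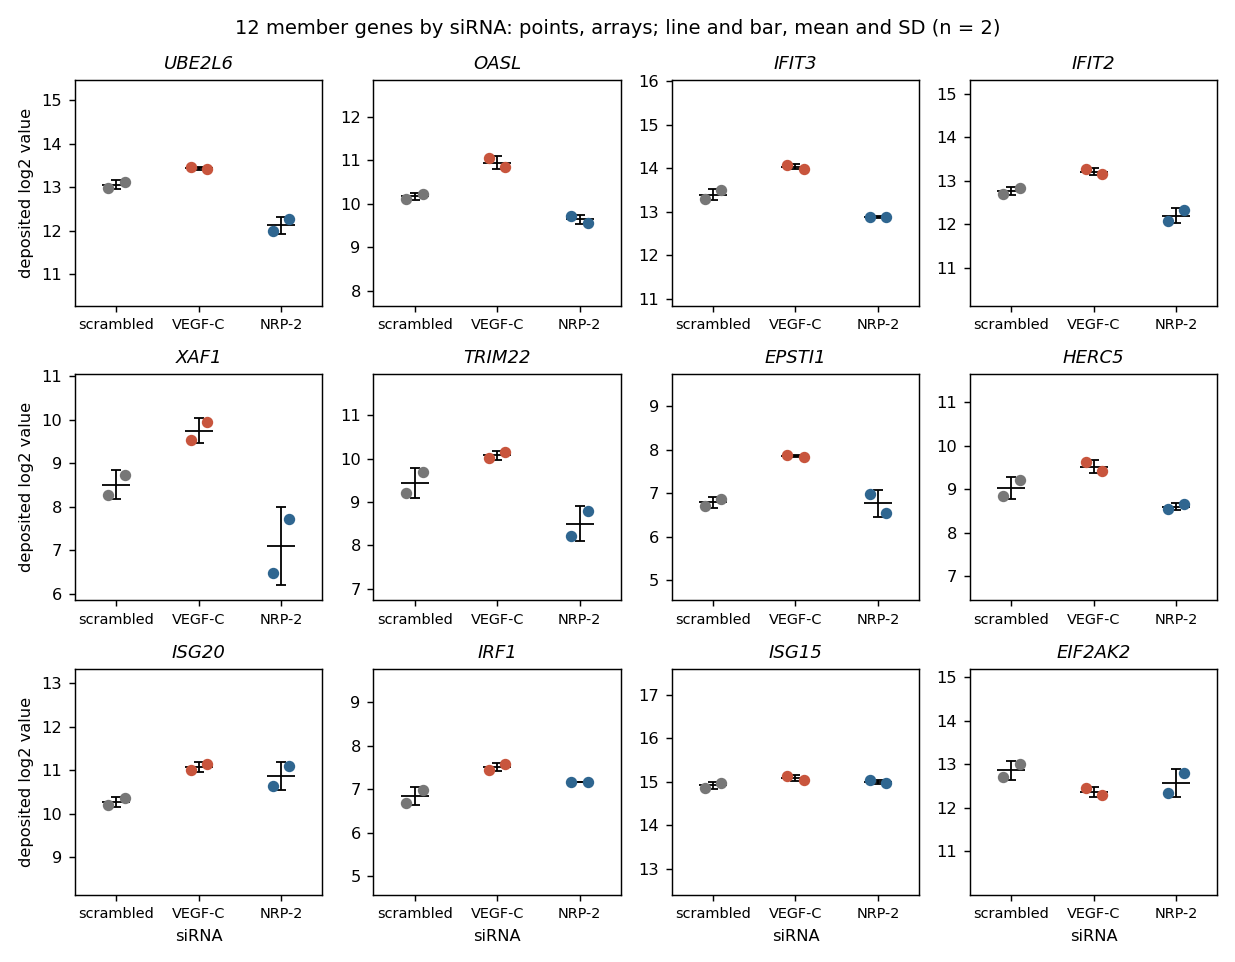
Deposited log2 value (vertical axis, of equal length in log2 units in each panel) of 12 members by siRNA, with 1 point for each array and a line and bar for the mean and SD (n = 2). UBE2L6, OASL, IFIT3, IFIT2, XAF1, TRIM22 and HERC5 are highest with VEGF-C and lowest with NRP-2 siRNA, ISG20 and IRF1 stand above scrambled siRNA with both, and ISG15 stands between 14.86 and 15.14 on every array.

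The 9 other induced genes held the member with the largest difference of all. XAF1, which antagonises the caspase inhibitor XIAP, stood at 8.26 and 8.73 with scrambled, 9.54 and 9.95 with VEGF-C, and 6.46 and 7.72 with NRP-2 siRNA. The groups did not overlap, although the NRP-2 arrays lay far apart. Between NRP-2 and VEGF-C siRNA XAF1 was 6.29-fold lower (-2.65, SE 0.44; limma, adjusted p = 0.116), and its second probe set past the filter gave -3.19. Against scrambled siRNA the differences were 1.24 (SE 0.44) with VEGF-C and -1.41 (SE 0.44) with NRP-2 siRNA.

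EPSTI1, an interferon-induced gene first found in epithelial cells grown with stroma, stood at 6.70 and 6.88 with scrambled, 7.87 and 7.84 with VEGF-C, and 6.99 and 6.54 with NRP-2 siRNA. The VEGF-C arrays lay above all others, 2.10-fold above scrambled siRNA (1.07, SE 0.18, limma adjusted p = 0.204). The NRP-2 arrays lay on both sides of the controls (-0.03, SE 0.18). In a dimmer EPSTI1 probe set the VEGF-C arrays were again highest, but only 0.51 above scrambled siRNA. There both NRP-2 arrays (6.52 and 6.31) stood above the scrambled arrays (6.30 and 5.97), by 0.27 on average. NRP-2 minus VEGF-C was -0.23 in that probe set, against -1.09 in the brightest. IFI44 showed the opposite arrangement to that of EPSTI1, each in its brightest probe set. IFI44 stood at 11.08 and 11.42 with scrambled, 11.18 and 11.12 with VEGF-C, and 10.49 and 10.38 with NRP-2 siRNA. Only the NRP-2 arrays left the range of the controls (-0.81, SE 0.16, limma adjusted p = 0.213). A second, dimmer probe set gave -0.46 against scrambled siRNA, with NRP-2 arrays of 6.38 and 6.45 between the scrambled arrays (6.30 and 7.45). The related gene IFI44L gave 0.07 and -0.39 against scrambled siRNA.

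IFI35, a leucine zipper protein, stood at 9.61 and 9.92, 10.39 and 10.21, and 9.14 and 9.63, with the VEGF-C arrays highest and a difference of -0.92 (SE 0.21) between NRP-2 and VEGF-C siRNA. SP110, a nuclear body protein, stood at 10.72 and 11.04, 11.37 and 11.08, and 10.61 and 10.73 in its brightest probe set. Of its 5 probe sets, 3 gave -0.56 to -0.63 between NRP-2 and VEGF-C siRNA, and the dimmest gave 0.01 and 0.02. IFI6, a small membrane protein and the brightest of this role, stood at 14.54 and 14.64, 14.71 and 14.66, and 14.68 and 14.49, and neither it nor IFI27 was past the unadjusted threshold in any comparison. PLSCR1, a phospholipid scramblase, was lower with NRP-2 than with VEGF-C siRNA at that threshold (-0.42, SE 0.16).

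Of the secreted and antigen-presenting products, the chemokines CXCL10 and CXCL11, which draw T cells through CXCR3, differed from each other in where they departed. CXCL10 stood at 6.63 and 7.05 with scrambled, 7.82 and 7.41 with VEGF-C, and 6.99 and 6.60 with NRP-2 siRNA. Its VEGF-C arrays lay above the rest (0.77, SE 0.24 against scrambled) and its NRP-2 arrays within the range of the controls or just under it. CXCL11 stood at 7.73 and 8.48, 8.67 and 8.13, and 6.69 and 7.30, with the NRP-2 arrays below the rest (-1.11, SE 0.35 against scrambled) and the VEGF-C arrays overlapping the controls. TAP1, the peptide transporter of antigen presentation, gave 0.29 with VEGF-C and -0.12 with NRP-2 siRNA (SE 0.15 each). LGALS3BP, a secreted glycoprotein and the brightest of this role, stood at 11.82 and 11.72, 12.03 and 12.00, and 12.11 and 11.74, with no comparison past the unadjusted threshold. Because RNA was pooled over all cells of a culture, a difference in the share of expressing cells and a difference in RNA per cell cannot be told apart.

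**Figure D5:**
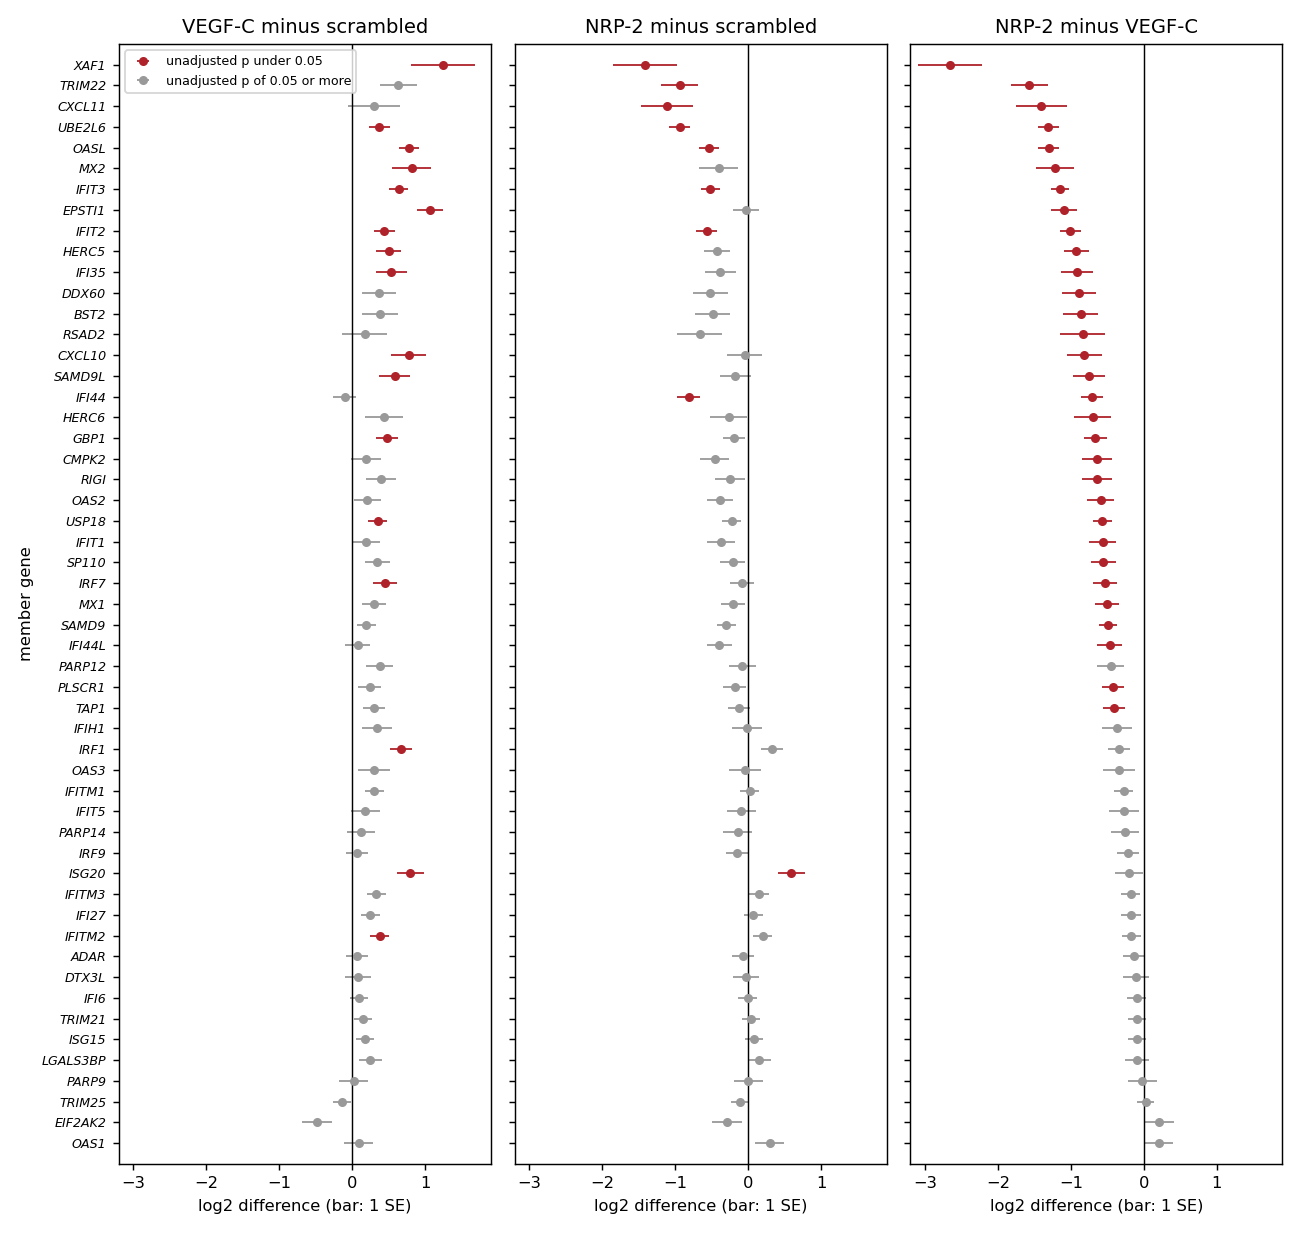
Log2 difference (point) and SE (bar) of each of the 53 members in the 3 comparisons, with genes ordered by NRP-2 minus VEGF-C and red marking an unadjusted p under 0.05 (17, 9 and 31 members from left to right; 0 members had an adjusted p under 0.05). In the right panel the points run from -2.65 (XAF1) to 0.20 (OAS1 and EIF2AK2), and in the left panel 50 of 53 lie above 0.

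The direction of a comparison did not rest on the choice of probe set for most members. Of the 85 member probe sets past the filter, 76 stood above 0 with VEGF-C siRNA against scrambled siRNA (median 0.34), 68 stood below 0 with NRP-2 siRNA against scrambled siRNA (median -0.20), and 78 stood lower with NRP-2 than with VEGF-C siRNA (median -0.53). Of 23 members with several such probe sets, 18 had a common sign in each comparison taken by itself. These were not the same members in every comparison. Signs differed by over 0.5 for EIF2AK2 and IFIH1 with VEGF-C against scrambled siRNA, for IRF1, OAS1 and SP110 with NRP-2 against scrambled siRNA, and for IFIH1, PARP9 and SP110 between NRP-2 and VEGF-C siRNA. OAS1, the only member whose NRP-2 arrays lay above both VEGF-C arrays (0.20, SE 0.20), gave -0.21 in its second probe set. PARP9 gave 0.53 in its second probe set against -0.02 in the first.

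Members with and without an ISRE core in their window stood on the same side in each comparison. Over the 31 members with a match the median was 0.25 with VEGF-C and -0.09 with NRP-2 siRNA against scrambled siRNA and -0.42 between NRP-2 and VEGF-C siRNA, with 15 lower at an unadjusted p under 0.05 in the last (8.66% of all genes). Over the 14 measured members with a window and no match the medians were 0.36, -0.23 and -0.64, with 9 lower in the last. XAF1, UBE2L6, IRF1 and CXCL11 are among these 14, and the lack of a match says only that these letters are not in this window. Of 333 genes tested that are no members and hold the core, 10.8% were lower with NRP-2 than with VEGF-C siRNA at that threshold, against 8.14% of 8811 without it, and their median was -0.01.

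The genes around the response were taken from fixed lists, to be read against 14.8% (VEGF-C) and 13.3% (NRP-2) of all genes at an unadjusted p under 0.05 in either direction against scrambled siRNA. Of 9 measured receptor and JAK-STAT genes (11 listed), 1 was higher and 1 lower in the comparison of VEGF-C with scrambled siRNA at an unadjusted p under 0.05, and 1 higher and 0 lower with NRP-2 siRNA. IL10RB, a chain shared by the interferon lambda and interleukin-10 receptors, stood at 9.56 and 9.71 with scrambled, 9.94 and 10.33 with VEGF-C, and 10.53 and 10.46 with NRP-2 siRNA. Both siRNA groups lay above the controls, by 0.50 (SE 0.17) and 0.87 (SE 0.17). IFNAR1, the signalling chain of the type I receptor, stood at 9.20 and 9.34, 8.76 and 8.76, and 9.10 and 9.37, so the VEGF-C arrays, in which most members stood highest, had the lowest IFNAR1 (-0.51, SE 0.14). The probe sets of STAT3 were under the filter.

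Of 9 measured genes of nucleic acid sensing (15 listed), 1 was higher and 1 lower with VEGF-C siRNA and 2 were lower with NRP-2 siRNA against scrambled siRNA. These 2 were IFI16 and TLR3. IFI16, a nuclear sensor of DNA that is itself induced by interferon, stood at 11.78 and 11.77 with scrambled, 12.18 and 12.17 with VEGF-C, and 11.24 and 11.30 with NRP-2 siRNA. Its arrays were tight within groups and the groups did not overlap, with -0.91 (SE 0.11; limma, Benjamini-Hochberg adjusted p = 0.098) between NRP-2 and VEGF-C siRNA. TLR3, the endosomal receptor of double-stranded RNA, stood at 5.41 and 5.75, 5.85 and 5.52, and 4.59 and 4.71, with the NRP-2 arrays below the rest (-0.93, SE 0.19 against scrambled).

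Among 8 feedback regulators, 0 were higher and 2 lower in each comparison against scrambled siRNA. SOCS3, an inhibitor of JAK kinases, stood at 10.13 and 9.72, 10.13 and 10.29, and 9.11 and 9.34, with the NRP-2 arrays lowest (-0.71, SE 0.19 against scrambled). PIAS1, an inhibitor of interferon-driven transcription, stood at 8.84 and 9.07, 8.49 and 8.19, and 8.54 and 8.92, with the VEGF-C arrays below the controls (-0.61, SE 0.20). Of 10 measured antigen presentation genes (11 listed), 2 were higher with VEGF-C than with scrambled siRNA, 0 differed with NRP-2 siRNA and 2 were lower with NRP-2 than with VEGF-C siRNA (8.66% of all genes). The immunoproteasome subunits PSMB9 and PSMB10 gave 0.78 and 0.53 (SE 0.19 each) with VEGF-C siRNA and -0.07 and -0.15 with NRP-2 siRNA against scrambled siRNA. B2M, the light chain of class I molecules, stood between 15.47 and 15.60 on all 6 arrays.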

How the data were processed

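Total RNA of PC3 cells was measured on 6 Affymetrix arrays of 54675 probe sets. The values the authors deposited are on the log2 scale, 1 per probe set and array. The submitters' processing notes name Partek and GCRMA, and no version is given in the labels or headers. GCRMA corrects background by probe sequence and normalizes arrays to each other, and it compresses values near the floor, so differences of dim genes are understated. The number of arrays limits the precision. Groups and array numbers came from the sample titles and treatment labels.

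Probe sets were named from the platform annotation of 2016: 41091 carried 1 gene, 1801 several and 11721 none, and 62 were controls. The 2 probe sets naming a member and another gene were left out. Each gene was represented by its brightest probe set with a mean of at least log2 4, leaving 11131 genes. The 3 groups entered 1 limma fit (version 3.58.1, R 4.3.3, lmFit with eBayes, two-sided tests) over all 6 arrays, with 3 residual and 2.46 prior degrees of freedom and Benjamini-Hochberg adjustment over all 11131 genes. A difference is a log2 difference of group means with its standard error (SE). Because 0 genes passed, counts at an unadjusted p under 0.05 are given as descriptions beside the same share over all genes. The procedure was tested on simulated data with noise drawn independently for each gene. Shifts shared by many genes between arrays, as seen here, were not simulated, so the p-values were not tested under them.

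Values on every array were given for the 25 members with the smallest unadjusted p under 0.05 and the brightest of each role. In the pathway lists, except the ligands and the G2 and mitosis genes, the 2 genes with the smallest p against scrambled siRNA were named. VEGFC and NRP2 were named as the targets. The members, lists, motifs and this rule were chosen with earlier results of these data known. Alternatives were other filters, the mean of all probe sets, equal array medians, each array left out, the replicate number as a block, the mean of 19 G2 and mitosis genes as covariate, and only the 4 arrays compared.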

Additional observations from a re-analysis of the deposited data

How the results depend on the processing

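With 2 arrays a group, 1 array decides much of each count. Leaving out each array in turn gave 5 to 20 members at an unadjusted p under 0.05 for VEGF-C against scrambled siRNA, 4 to 13 for NRP-2 against scrambled siRNA and 16 to 31 for NRP-2 against VEGF-C siRNA. At the low ends the first 2 counts, 5 and 4 of 53, are about the share of all genes in those fits (9.34% and 7.44%), while the 16 stand beside 15.2%. The median difference of the members then ran from 0.17 to 0.44 and from -0.32 to -0.0455 in the comparisons against scrambled siRNA, and it kept its sign throughout. With no low-value filter limma called 1 gene, NWD2, which is no member, for VEGF-C against scrambled siRNA and again 1 for NRP-2 against VEGF-C siRNA; the other alternatives run called 0. Other filters, the mean of all probe sets, equal medians, the covariate and only the 4 arrays compared kept the members' counts within 1.5 times and their medians within the spread between arrays, and no named gene reversed its direction past the threshold.

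The array numbers were shared by the groups, but the labels do not say that a number marks a common culture. Across 11131 genes the differences between array 1 and array 2 correlated at 0.11 between scrambled and VEGF-C siRNA, 0.58 between scrambled and NRP-2 siRNA and 0.12 between VEGF-C and NRP-2 siRNA. With the number as a replicate block, 16 members were higher for VEGF-C against scrambled siRNA (17.9% of all genes in either direction), 1 higher and 9 lower for NRP-2 against scrambled siRNA (17.2%), and 31 lower for NRP-2 against VEGF-C siRNA (20.4%).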
